A study of Homo sapiens with 12 samples.

Results

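The nuclear receptors that bind thyroid hormone (THRA and THRB), the retinoid X receptors RXRA and RXRB, the corepressor NCOR1, the coactivators NCOA1, NCOA2 and NCOA3 and the Mediator subunit MED1 were examined as 1 set of 9 genes. They were chosen by symbol for their known roles, with earlier results of these data known. All 9 were among the 56832 gene symbols counted and passed the filter on low counts. The cells were SW1736, an established line derived from anaplastic thyroid carcinoma. They carried the vector pCDH-TRB, labelled as giving stable expression of thyroid hormone receptor beta (TRB cells), or the empty vector pCDH-EV (EV cells). All cells first spent 24 h in phenol-red free medium with serum stripped of hormone by charcoal. They then received 10 nM T3 (triiodothyronine, the active thyroid hormone) or the NaOH vehicle for 24 h. The 4 groups were EV/vehicle, EV/T3, TRB/vehicle and TRB/T3, each with 3 RNA-seq libraries. The promoter of the vector and the number of clones are not given in the sources used here. Nothing says that replicates were separate cultures, so p-values measure the spread between libraries, which may be technical. In the main fits this spread was taken from all 4 groups together, not only from the groups compared.

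Thyroid hormone receptors sit on DNA mostly as heterodimers with an RXR. Without hormone they hold corepressor complexes built around NCOR1, which carry histone deacetylase. When T3 binds, the corepressor leaves and p160 coactivators (NCOA1, NCOA2 and NCOA3) and then Mediator, contacted through MED1, are recruited, so that target genes are transcribed. THRB is the isoform whose loss is known in thyroid cancers, and THRA is the other receptor isoform.

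Gene counts totalled 3819306 to 13086717 per library. Of the markers of epithelium, KRT8, KRT18, EPCAM and CDH1 were at 141 CPM or more in all 12 libraries (CPM, the count of a gene relative to the total of its library), with KRT7 at 1.55 to 11.2 CPM. For these cell type markers the total was not scaled, and for all other genes below it was. Of the thyroid markers given here, FOXE1 was at 0 in all 12, with TG at 0 to 0.640 CPM, SLC5A5 at 0 to 0.128, NKX2-1 at 0.141 to 1.57 and PAX8 at 0.565 to 7.20. VIM, a mesenchymal marker, was at 0 to 1.59 CPM, while FN1 ranged from 9.61 to 309 and COL1A1 from 1.13 to 34.3. The immune marker CD3E and the endothelial marker CDH5 were at 0 in all libraries, and PTPRC, CD68, DCN, PECAM1 and VWF did not exceed 1.05 CPM. TRB/T3 replicate 2 stood apart from its group: across genes, Spearman's rho between transcript GC content and its log2 difference from replicates 1 and 3 was -0.89. The main results are therefore given for 12 libraries and for the 11 without it. Some are also given with GC offsets, which take a smooth GC trend out of each library. With 12 libraries, tests between EV groups or between vehicle groups also carry the spread of TRB/T3 replicate 2. The biological coefficient of variation, the fit's measure of spread, was 0.329 with 12 libraries and 0.131 with 11. For T3 in EV cells, where that library is in neither group, 33 genes passed the test below with 12 libraries and 1087 with 11.

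The 9 genes split by GC content, and apart from THRB their levels in that library split the same way. Their longest transcripts held 60.6% GC for RXRA, 60% for THRA and 58.5% for RXRB, against 42.6% to 46.1% for the other 6, where the median of the genes with a value was 48.3%. In TRB/T3 replicate 2, THRA had 75 counts, RXRB 74 and RXRA 197. Its CPM was 0.194 times the mean of replicates 1 and 3 for THRA, 0.197 times for RXRB and 0.224 times for RXRA. For NCOA3 the ratio was 1.77, for NCOA2 1.39, for NCOR1 1.31, for NCOA1 1.30 and for MED1 1.15. THRB, listed at 43.1% GC, had a ratio of 0.615, unlike the other GC-poor genes. Its GC content, here and in the GC offsets, is that of the endogenous transcript. The GC content of the vector's transcript, whose reads are also counted, is not given in the sources used here.

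**Figure D1:**
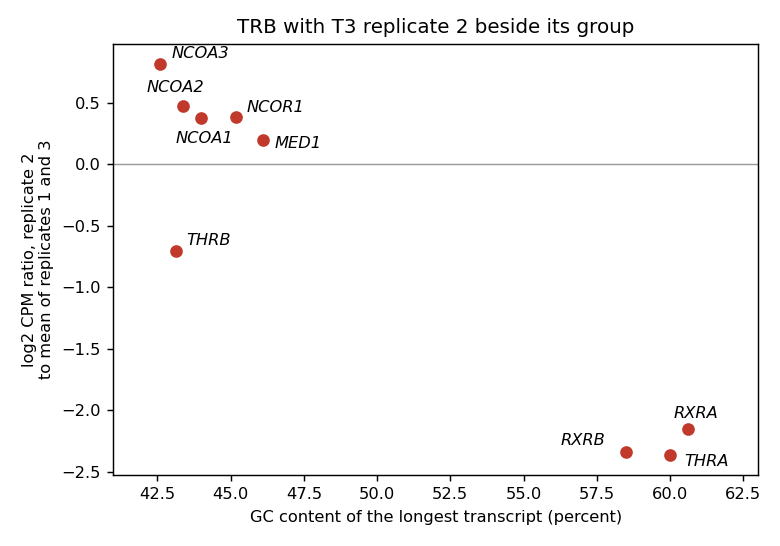
The log2 CPM ratio of TRB/T3 replicate 2 to the mean of replicates 1 and 3 (vertical) is plotted against the GC content of the longest transcript in percent (horizontal), 1 point per gene. RXRA, THRA and RXRB lie near -2.2 to -2.4 at 58.5% to 60.6% GC, NCOR1, NCOA1, NCOA2, NCOA3 and MED1 lie above 0, and THRB lies at -0.70. THRB is placed at the GC content of its endogenous transcript.

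A quasi-likelihood test in edgeR, adjusted over all genes tested, compared the groups at a threshold of 0.05. For T3 in TRB cells 2 of the 9 genes passed with 12 libraries (THRB and NCOA1, both higher), where 14.7% of all 14431 genes did. Without TRB/T3 replicate 2, 3 passed (THRA, lower, joined them), where 33.3% of 14825 genes did. For T3 in EV cells 0 of the 9 passed in edgeR with 12 or with 11 libraries, 0 had an unadjusted p under 0.05 and DESeq2 called 0, where 0.229% and 7.33% of all genes were called. For TRB against EV in vehicle only THRB passed, where 0.0208% of all genes did, and 0.0742% with 11 libraries. For TRB against EV cells under T3 again THRB alone passed, against 6.68% of all genes, and 19.7% with 11 libraries. The interaction, which tests whether the T3 change differs between TRB and EV cells, passed for THRB alone with 12 libraries (2.59% of all genes) and for THRB and NCOA1 with 11 (15.2%). With 12 and with 11 libraries, the share called of the genes other than THRB did not exceed the share of all genes in any of these comparisons.

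**Figure D2:**
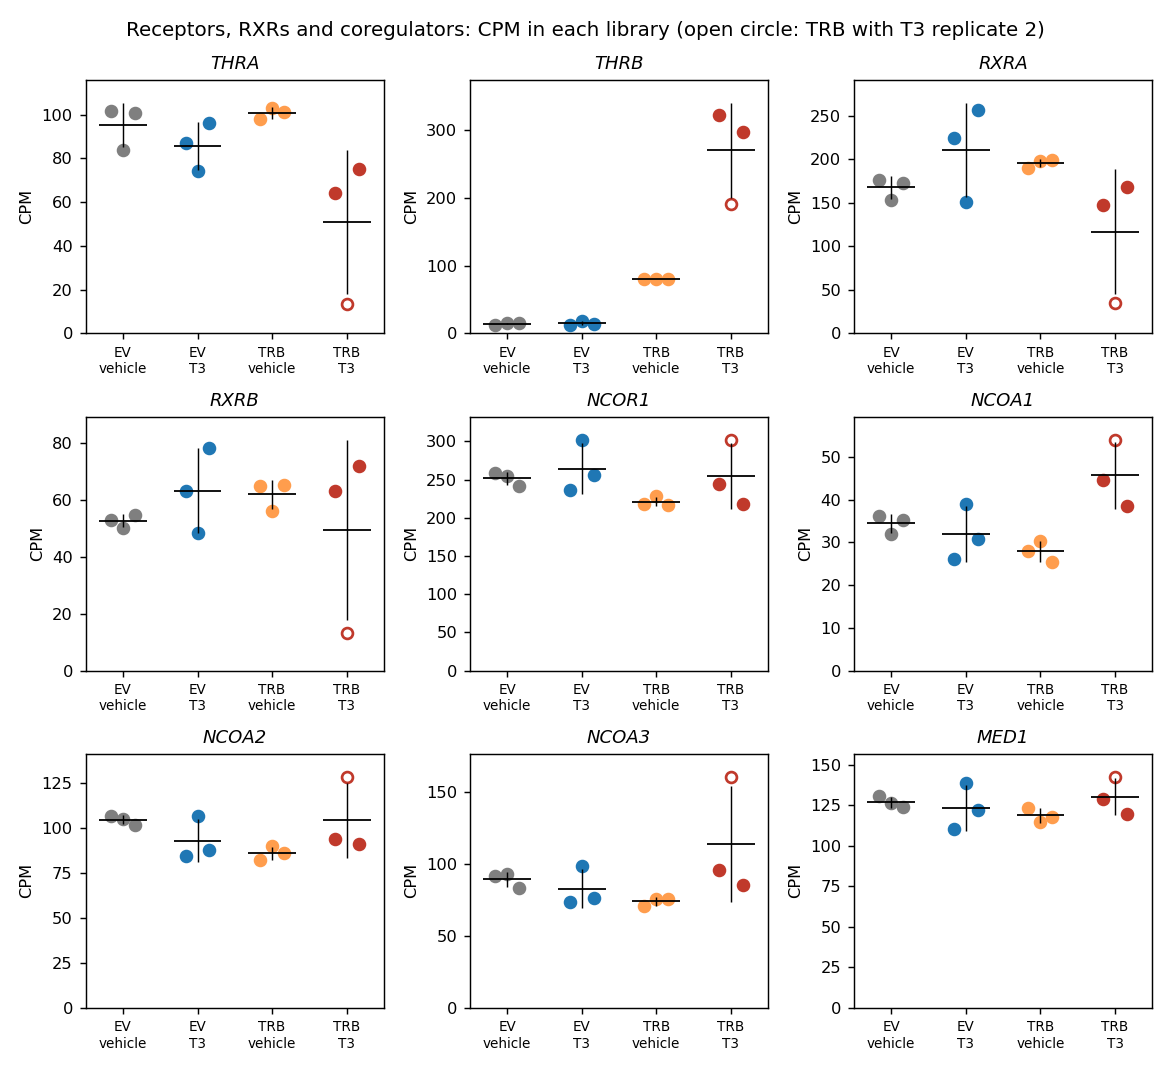
CPM (vertical, from 0) of each of the 9 genes in each of the 12 libraries, by group (horizontal), with the group mean and SD as black lines. THRB rises from 12.3 to 18.3 CPM in the EV libraries to 190.3 to 322 in TRB/T3, and the open circle, TRB/T3 replicate 2, is the lowest of the 12 for THRA, RXRA and RXRB.

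THRB is what the vector carries, so its level checks the labels. It stood at 13.0, 15.2 and 15.6 CPM in EV/vehicle (replicates 1 to 3) and at 12.3, 18.3 and 14.2 in EV/T3. In TRB/vehicle it stood at 80.2, 79.8 and 80.4 CPM, and in TRB/T3 at 322, 190.3 and 297. All 6 TRB libraries lay above all 6 EV libraries, and the TRB libraries with T3 all lay above those with vehicle. The fold was 5.46 in vehicle (log2 2.45, SE 0.231, adjusted p 0.00377), and 18.0 with T3 (log2 4.17, SE 0.248, adjusted p 1.83e-05). Reads of the vector's transcript and of the endogenous gene are not told apart in these counts; the endogenous gene lies at chr3:24117153-24495756 on the minus strand in GRCh38.

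T3 raised THRB reads in TRB cells by 1.75 on the log2 scale (SE 0.222, adjusted p 0.000434), a fold of 3.37. In EV cells, where the reads can come only from the endogenous gene, the change was 0.03 (SE 0.225, adjusted p 0.982). The difference between both responses was 1.72 (SE 0.314, adjusted p 0.0187). With 11 libraries the values were 2.0 in TRB cells (adjusted p 2.1e-07), 0.04 in EV cells (adjusted p 0.872) and 1.95 for the difference (adjusted p 5.48e-05). The call in vehicle was lost without EV/vehicle replicate 1, 2 or 3 (adjusted p 0.0801, 0.0733 and 0.0671), with changes of 2.41 to 2.52. Those fits kept TRB/T3 replicate 2 and its spread. With that library left out instead, the change in vehicle was 2.45 (adjusted p 4.33e-06). The interaction call was lost without any 1 of the 3 TRB/vehicle libraries, the 3 EV/vehicle libraries or EV/T3 replicates 1 and 3 (adjusted p 0.0504 to 0.0787), with differences of 1.57 to 1.77.

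THRA lies on chromosome 17 (chr17:40058290-40093867, plus strand, GRCh38). It stood at 102, 83.8 and 101 CPM in EV/vehicle and at 86.9, 74.1 and 95.9 in EV/T3. In TRB/vehicle it stood at 98.0, 103 and 101 CPM, and in TRB/T3 at 64.0, 13.5 and 75.2. The 3 TRB libraries with T3 were all below the 3 with vehicle, and TRB/T3 replicate 2 was the lowest by far. Groups did not overlap for T3 in TRB cells in 40.8% of all genes with 12 libraries and in 65.7% with 11. For T3 in EV cells the groups overlapped for all 9 members, where 26.9% of all genes had no overlap.

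With 12 libraries the change of THRA with T3 in TRB cells was -0.98 (SE 0.453, adjusted p 0.172), above the threshold. Without TRB/T3 replicate 2, THRA fell by 0.49 on the log2 scale (SE 0.133, adjusted p 0.0130), and with GC offsets too it fell by 0.62 (SE 0.0779, adjusted p 4.59e-06). On 12 libraries with GC offsets it fell by 0.55 (adjusted p 0.000408). In EV cells the change was -0.16 (adjusted p 0.949), and -0.16 with 11 libraries (adjusted p 0.393). With GC offsets it was -0.38 on 12 libraries (adjusted p 0.0283) and -0.38 on 11 (adjusted p 0.00178), where 4.46% and 17.7% of all genes were called. The difference between the vectors was -0.82 (adjusted p 0.429), -0.33 with 11 libraries (adjusted p 0.236) and -0.24 with GC offsets on 11 (adjusted p 0.0887). A different THRA response in TRB and EV cells was thus not shown.

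NR1D1, a circadian repressor gene on the opposite strand, has exons that share 263 bases with those of THRA (3.78% of them). THRA may have gained or lost reads there, since the strand setting of the counting is not given in the sources used here. NR1D1 itself changed with T3 in TRB cells by -0.27 (adjusted p 0.771), and by 0.28 without replicate 2 (adjusted p 0.388). Expressed as a share of the reads of both receptor genes, uncorrected for length, THRB made up 13.4% ± 1.99 (SD, n = 3) in EV/vehicle and 15.0% ± 4.13 in EV/T3. It made up 44.3% ± 0.696 in TRB/vehicle and 85.5% ± 7.04 in TRB/T3, where the 3 libraries were at 83.4%, 93.4% and 79.8%. Per kilobase of exon, THRB stood at 1.33 ± 0.127 CPM and THRA at 13.7 ± 1.44 in EV/vehicle. In TRB/T3 they stood at 24.6 ± 6.37 and 7.31 ± 4.72, so the order of the pair was the opposite; the length of the vector's transcript is not given, so this THRB value uses the exons of the gene.

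THRA and NCOA1 were the members other than THRB that passed for T3 in TRB cells with 11 libraries, so for each a stretch before a start site listed in RefSeq (GRCh38.p14) is shown, without bases that are exonic in GENCODE. The stretch for THRA is chr17:40062715-40062809 on the plus strand (95 bases); it precedes a start at 40062965 that lies inside the span of the gene given above. The stretch for NCOA1 is chr2:24491627-24491876 on the plus strand (250 bases). Capitals would mark the hormone response half-site AGGTCA on either strand, and none is present.
THRA: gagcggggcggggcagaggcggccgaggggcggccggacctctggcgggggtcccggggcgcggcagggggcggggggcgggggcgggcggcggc
NCOA1: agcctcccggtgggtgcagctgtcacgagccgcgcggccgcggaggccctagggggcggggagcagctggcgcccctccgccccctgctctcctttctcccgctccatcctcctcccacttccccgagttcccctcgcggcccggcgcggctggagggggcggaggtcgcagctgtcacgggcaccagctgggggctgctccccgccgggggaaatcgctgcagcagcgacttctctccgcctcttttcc
The first is 90.5% and the second 74% GC. The half-site was searched on both strands in the 250 bases before 14 start sites of 8 of the 9 genes, and 0 held it. NCOA2 was left out of this search, so the count says nothing about it. Among all 35116 such windows 12.08% held it, and 0.01424% held the direct repeat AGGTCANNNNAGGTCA, which contains the half-site. These letters not being in the window says nothing about binding elsewhere.

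RXRA and RXRB are the partners with which the receptors pair on DNA. RXRA stood at 177, 153 and 173 CPM in EV/vehicle and at 224, 151 and 257 in EV/T3. In TRB/vehicle it stood at 190.4, 198 and 199 CPM, and in TRB/T3 at 147, 35.4 and 168. TRB libraries with T3 were all below those with vehicle, while EV libraries with T3 included the 2 highest values and the lowest value of the EV libraries. The change with T3 in TRB cells was -0.74 (SE 0.437, adjusted p 0.269), and -0.26 without replicate 2 (SE 0.170, adjusted p 0.268), so neither passed.

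With GC offsets on 11 libraries RXRA fell by 0.38 with T3 in TRB cells (SE 0.0656, adjusted p 0.000107), where 56% of all genes were called. On 12 libraries with GC offsets its change was -0.20 (adjusted p 0.173), which did not pass. In EV cells the change was 0.33 (adjusted p 0.940), 0.32 with 11 libraries (adjusted p 0.187) and 0.06 with GC offsets on 11 (adjusted p 0.50). The difference between the vectors was -1.07 (adjusted p 0.322), -0.58 with 11 libraries (adjusted p 0.105) and -0.45 with GC offsets on 11 (adjusted p 0.000957), where 34.3% of all genes were called. On 12 libraries with GC offsets this difference was -0.27 (adjusted p 0.269). The EV libraries with T3 themselves differed in GC trend: the Spearman correlation of a library's deviation with GC was 0.50 in replicate 1, -0.63 in replicate 2 and 0.76 in replicate 3, and RXRA was lowest in replicate 2 and highest in replicate 3.

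RXRB ranged from 50.2 to 54.7 CPM in EV/vehicle, 48.4 to 78.2 in EV/T3 and 55.8 to 65.0 in TRB/vehicle, and was at 63.2, 13.3 and 71.7 in TRB/T3. Its change with T3 in TRB cells was -0.32 (adjusted p 0.647), and 0.17 without replicate 2 (adjusted p 0.446), so even the direction rested on that library. Exons of RXRB share 244 bases (6.22%) with SLC39A7, a zinc transporter gene on the opposite strand that rose with T3 in TRB cells by 1.04 (SE 0.235, adjusted p 0.0128). RXRA had 3.18 ± 0.143 times the reads of RXRB in EV/vehicle, 3.32 ± 0.227 in EV/T3, 3.18 ± 0.323 in TRB/vehicle and 2.45 ± 0.186 in TRB/T3 (SD, n = 3). The 3 TRB libraries with T3, at 2.33, 2.66 and 2.35, were below the other 9, replicate 2 included, where both of these GC-rich genes were low together. No test was run on this ratio, which was formed after the values were seen.

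NCOR1, the scaffold of the corepressor complex, was near the same level in every group. It ranged from 242 to 258 CPM in EV/vehicle, 236 to 302 in EV/T3, 217 to 228 in TRB/vehicle and 218 to 302 in TRB/T3. The change with T3 was 0.20 in TRB cells (SE 0.159, adjusted p 0.399) and 0.07 in EV cells (SE 0.159, adjusted p 0.941). Without replicate 2 the change in TRB cells was 0.11 (SE 0.118, adjusted p 0.514). Its exons share 321 bases (2.08%) with PIGL on the opposite strand, and the pseudogene NCOR1P2 had 0 counts in all libraries.

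Of 17 partners of the corepressor complex, all tested, 2 rose and 1 fell with T3 in TRB cells with 12 libraries, where 14.7% of all genes were called, and the median change was 0.11 (all genes 0.01). With 11 libraries 3 rose and 1 fell, where 33.3% of all genes were called, with a median of 0.04 (all genes -0.01), and with GC offsets on 11 libraries 5 rose and 4 fell, where 56% were called. TBL1X, a core subunit that holds NCOR1 to histone deacetylase 3 and serves in the exchange of corepressors, stood at 127, 118 and 124 CPM in EV/vehicle. It stood at 89.2, 85.1 and 93.4 in EV/T3, at 112, 122 and 118 in TRB/vehicle and at 28.1, 25.5 and 29.5 in TRB/T3. The vehicle groups overlapped, the EV libraries with T3 lay below both, the TRB libraries with T3 lay below all others, and TRB/T3 replicate 2 lay with its group.

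TBL1X fell by 2.08 with T3 in TRB cells (SE 0.141, adjusted p 8.75e-06), and by 1.98 without replicate 2. In EV cells the change was -0.46 (SE 0.135, adjusted p 0.389), and with 11 libraries it fell by 0.46 (SE 0.0891, adjusted p 0.0103). On 12 libraries it fell there by 0.47 with GC offsets (adjusted p 0.0122) and by 0.42 in DESeq2 (adjusted p 0.0176). The difference between both responses was -1.62 (SE 0.193, adjusted p 0.00215), and -1.52 with 11 libraries (adjusted p 2.52e-05). Between the vectors in vehicle the change was -0.07 (adjusted p 1.00), and with T3 TBL1X was lower in TRB cells by 1.68 (SE 0.139, adjusted p 0.000114), a call lost with the compared groups alone (adjusted p 0.0587).

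The 2 partners that rose were RCOR1, a scaffold of the CoREST complex, and CORO2A, an actin-binding subunit found with NCOR1. RCOR1 stood at 91.9, 96.6 and 92.7 CPM in TRB/vehicle and at 141, 195 and 134 with T3, and rose by 0.74 (SE 0.169, adjusted p 0.0136). CORO2A stood at 35.5, 35.9 and 33.6 CPM and, with T3, at 67.5, 43.5 and 64.0, and rose by 0.74 (SE 0.184, adjusted p 0.0215). Both passed without replicate 2 as well, RCOR1 with 0.60 (adjusted p 0.000778) and CORO2A with 0.96 (adjusted p 1.46e-05). CORO2A lost its call without TRB/vehicle replicates 1, 2 or 3 (adjusted p 0.0775, 0.0796 and 0.0990) and without TRB/T3 replicates 1 or 3 (adjusted p 0.0654 and 0.0568). Neither passed with the compared groups alone (adjusted p 0.140 for RCOR1 and 0.213 for CORO2A) or with no count filter (adjusted p 0.0981 and 0.139).

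In EV cells 0 of the 17 partners passed with 12 libraries (1 had an unadjusted p under 0.05), where 0.229% of all genes did, while 1 rose and 1 fell with 11, where 7.33% did. The one that rose was HR, a corepressor known to respond to T3, by 0.82 (adjusted p 0.0150), and the other was TBL1X. HR rose in TRB cells by 0.68 with 11 libraries (adjusted p 0.0104), and with 12 its change was 0.11 (adjusted p 0.920); it had 19 counts in replicate 2. With GC offsets on 12 libraries HR rose by 0.63 in TRB cells (adjusted p 0.00086) and by 0.50 in EV cells (adjusted p 0.0257). For TRB against EV in vehicle 0 of the 17 passed in edgeR with 12 or 11 libraries, with 0 and 2 at an unadjusted p under 0.05. The shares of all genes called there were 0.0208% and 0.0742%.

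**Figure D3:**
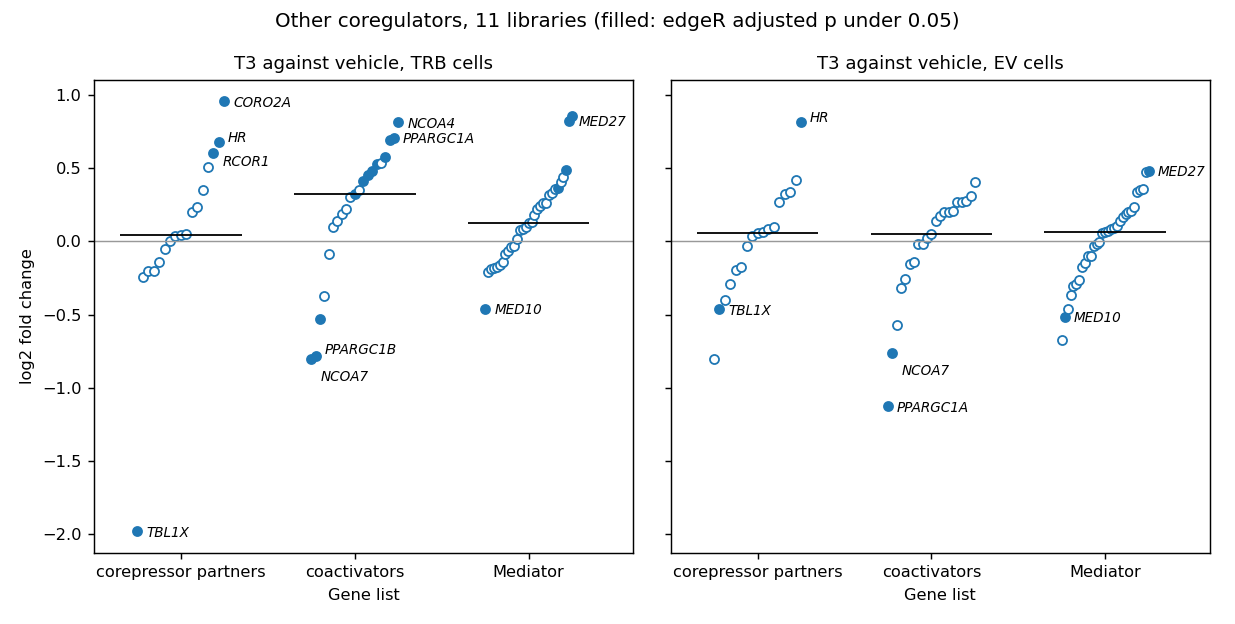
Each point is 1 gene of the corepressor partners, the coactivators or Mediator (horizontal), with its log2 fold change for T3 against vehicle in 11 libraries (vertical), in TRB cells (left) and EV cells (right). Lines mark the median of a list and filled points passed the test. TBL1X stands apart at -1.98 in TRB cells, and the median of the coactivators is 0.32 there.

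The 3 p160 coactivators are histone acetyltransferase scaffolds that bind receptors with hormone. NCOA1 lies on chromosome 2 (chr2:24491914-24770702, plus strand, GRCh38). It stood at 36.3, 32.0 and 35.2 CPM in EV/vehicle and at 26.1, 38.9 and 30.9 in EV/T3. In TRB/vehicle it stood at 28.0, 30.3 and 25.5 CPM, and in TRB/T3 at 44.5, 54.0 and 38.5. The TRB libraries with T3 were all above those with vehicle, and the EV groups overlapped.

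NCOA1 rose with T3 in TRB cells by 0.71 (SE 0.197, adjusted p 0.0352), a fold of 1.63. Without replicate 2 it rose by 0.62 (SE 0.162, adjusted p 0.0101), and with GC offsets too by 0.56 (adjusted p 0.00073). The call was lost without TRB/vehicle replicate 1, 2 or 3 (adjusted p 0.0954, 0.0738 and 0.123), TRB/T3 replicate 1 (adjusted p 0.0553) or EV/vehicle replicate 3 (adjusted p 0.0523), and both with the compared groups alone and with no count filter (adjusted p 0.174 in each). In EV cells its change was -0.11 (SE 0.197, adjusted p 0.941). The difference between the responses was 0.82 (SE 0.278, adjusted p 0.164) with 12 libraries and 0.71 (SE 0.222, adjusted p 0.0484) with 11.

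NCOA3 stood at 91.4, 92.6 and 83.1 CPM in EV/vehicle and at 73.6, 98.2 and 76.2 in EV/T3. In TRB/vehicle it stood at 70.3, 75.7 and 75.5 CPM, and in TRB/T3 at 95.8, 160.1 and 85.3. The TRB groups did not overlap, and replicate 2 held the highest value of all 12 libraries. The change with T3 in TRB cells was 0.62 (SE 0.233, adjusted p 0.101), and 0.34 without replicate 2 (SE 0.137, adjusted p 0.0726). NCOA3 rose by 0.28 with GC offsets on 11 libraries (SE 0.0829, adjusted p 0.00975) and 0.26 on 12 (adjusted p 0.0356), by 0.67 in DESeq2 on 12 (adjusted p 0.0431) and by 0.79 without TRB/T3 replicate 3 (adjusted p 0.0357). Exons of NCOA3 share 96 bases (1.14%) with SULF2 on the opposite strand, which fell with T3 in TRB cells by 1.22 (SE 0.285, adjusted p 0.0155).

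NCOA2 ranged from 102 to 107 CPM in EV/vehicle, 84.4 to 106 in EV/T3, 82.2 to 89.7 in TRB/vehicle and 90.9 to 128 in TRB/T3. Its change with T3 in TRB cells was 0.28 (SE 0.172, adjusted p 0.288), 0.15 with 11 libraries (adjusted p 0.367) and 0.08 with GC offsets on 11 (adjusted p 0.378). Of the p160 coactivators, NCOA1 alone passed with 12 libraries, but whether NCOA1 changed more than NCOA2 or NCOA3 was not tested. Reads of NCOA1, NCOA2 and NCOA3 together were 0.905 ± 0.00559 times those of NCOR1 in EV/vehicle and 0.783 ± 0.0225 in EV/T3. They were 0.848 ± 0.0186 times in TRB/vehicle and 1.03 ± 0.0946 in TRB/T3 (SD, n = 3). The 3 libraries of each group did not overlap with those of any other group: 0.899 to 0.910, 0.762 to 0.807, 0.826 to 0.860 and 0.957 to 1.13, in the same order. This ratio within a library joins genes of 42.6% to 45.2% GC and was not corrected for GC content. The highest value, 1.13, was that of TRB/T3 replicate 2. There NCOA3 was at 1.77 and NCOR1 at 1.31 times the mean of replicates 1 and 3. The ratio was formed after the values were seen and has no test. How often ratios of other genes separate the groups was not counted.

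**Figure D4:**
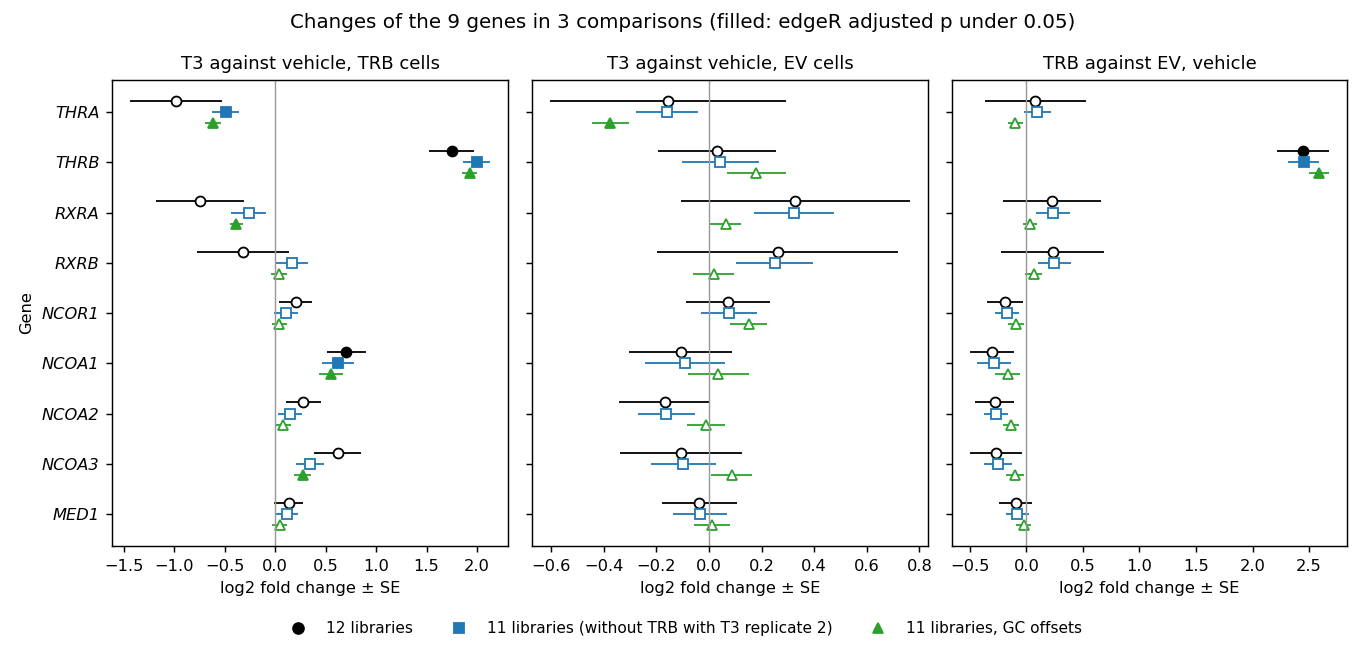
Log2 fold change ± SE (horizontal) of the 9 genes (vertical) for T3 in TRB cells, T3 in EV cells and TRB against EV in vehicle, with 12 libraries (circles), 11 (squares) and 11 with GC offsets (triangles). Filled symbols passed the test; the axes differ in range. For T3 in TRB cells THRB and NCOA1 are filled in all 3 settings and THRA in the 2 settings without replicate 2. RXRA and NCOA3 are filled there with GC offsets. THRA is filled in EV cells with GC offsets, and THRB in all 3 settings for TRB against EV in vehicle.

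Of 21 other coactivators, all tested, 1 rose and 1 fell with T3 in TRB cells with 12 libraries (14.7% of all genes called), and 9 rose and 3 fell with 11 (33.3% of all genes called). Their median change was 0.30 with 12 libraries and 0.32 with 11, beside 0.01 and -0.01 for all genes. NCOA4, a coactivator also known for the turnover of ferritin, stood at 155, 163 and 162 CPM in TRB/vehicle and at 274, 425 and 270.3 with T3. It rose by 1.01 (SE 0.200, adjusted p 0.00641), and by 0.81 without replicate 2 (adjusted p 0.000228). The call was lost with the compared groups alone (adjusted p 0.0767).

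PPARGC1B and PPARGC1A are PGC-1 coactivators, regulators of mitochondrial genes. PPARGC1B stood at 21.5, 20.5 and 22.2 CPM in TRB/vehicle and at 11.3, 6.30 and 13.0 with T3, and fell by 1.06 (SE 0.244, adjusted p 0.0139). Without replicate 2 it fell by 0.78 (adjusted p 0.0009). It lost its call without TRB/vehicle replicates 1, 2 or 3 (adjusted p 0.0657, 0.0538 and 0.0685), and a fit of only the TRB groups did not call it (adjusted p 0.172). In EV cells, at 23.2, 26.2 and 30.6 CPM with T3 and 20.6, 21.8 and 21.5 with vehicle, its change was 0.32 (adjusted p 0.935). The difference of the responses was -1.38 (adjusted p 0.0645), and -1.09 with 11 libraries (adjusted p 0.00209).

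PPARGC1A was near the limit of counting, with 5 to 53 counts per library. It stood at 3.04, 3.76 and 2.67 CPM in EV/vehicle and at 1.08, 1.80 and 1.27 in EV/T3. In TRB cells it stood at 2.95, 2.07 and 2.10 CPM with vehicle and at 3.98, 3.78 and 3.37 with T3. Its change with T3 in TRB cells was 0.65 (adjusted p 0.105) with 12 libraries and 0.33 (adjusted p 0.404) with GC offsets on them, and with 11 it rose by 0.71 (adjusted p 0.0462). The difference of the T3 responses was 1.80 (SE 0.372, adjusted p 0.0306). That call was lost without any 1 of 10 libraries (adjusted p 0.0513 to 0.125) and held without TRB/T3 replicate 2 (1.83, adjusted p 0.00699) and without EV/T3 replicate 2. It was also lost on 12 libraries with GC offsets (1.24, adjusted p 0.0963) and with no count filter (adjusted p 0.105). For T3 in EV cells 0 of the 21 coactivators passed in edgeR with 12 libraries (1 at an unadjusted p under 0.05). With 11, PPARGC1A fell by 1.13 (SE 0.287, adjusted p 0.0372), and NCOA7, a coactivator of the estrogen receptor, fell by 0.76 (adjusted p 0.0163). In TRB cells NCOA7 fell by 0.81 with 11 libraries (adjusted p 0.00361), and its change was -0.10 with 12 (adjusted p 0.871). The difference of its responses was -0.04 with 11 (adjusted p 0.918). For TRB against EV in vehicle 0 of the 21 coactivators passed in edgeR with 12 or 11 libraries, with 0 at an unadjusted p under 0.05. The shares of all genes called there were 0.0208% and 0.0742%.

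**Figure D5:**
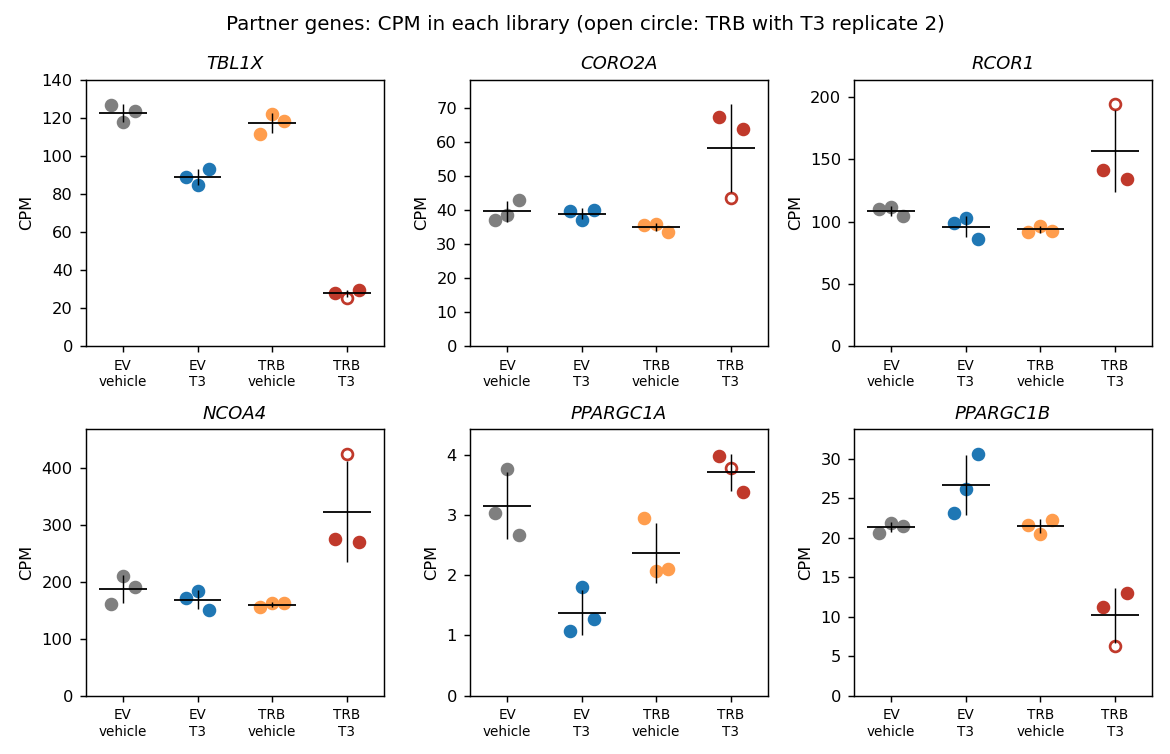
CPM (vertical, from 0) of 6 coregulators outside the 9 genes in each of the 12 libraries, by group (horizontal), with the group mean and SD as black lines. TBL1X is at 25.5 to 29.5 CPM in TRB/T3 against 111.7 to 122 in TRB/vehicle, and the open circle, TRB/T3 replicate 2, is the highest of its group for RCOR1 and NCOA4 and the lowest for CORO2A and PPARGC1B.

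MED1 is the subunit through which Mediator, the bridge to RNA polymerase II, contacts nuclear receptors. It ranged from 124 to 131 CPM in EV/vehicle, 110.4 to 139 in EV/T3, 115 to 123 in TRB/vehicle and 119.5 to 142 in TRB/T3. Its change with T3 was 0.14 in TRB cells (SE 0.143, adjusted p 0.531) and -0.04 in EV cells (SE 0.143, adjusted p 0.963). In TRB cells the change with 11 libraries was 0.12 (SE 0.113, adjusted p 0.474).

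Of 32 other Mediator genes 31 were tested. With T3 in TRB cells 0 rose and 1 fell with 12 libraries, where 14.7% of all genes were called, and 4 rose and 1 fell with 11, where 33.3% were. The medians were 0.17 and 0.13, beside 0.01 and -0.01 for all genes. The one that fell was MED10, from 32.4, 39.2 and 32.9 CPM with vehicle to 24.5, 21.6 and 24.6 with T3, by 0.56 (SE 0.165, adjusted p 0.0434). Leaving out any library other than TRB/T3 replicate 2 ended that call (adjusted p 0.0649 to 0.183), as did the compared groups alone (adjusted p 0.262) and no count filter (adjusted p 0.253), and without that one it fell by 0.46 (adjusted p 0.0192). In EV cells 0 of 31 passed in edgeR with 12 libraries (1 at an unadjusted p under 0.05), where 0.229% of all genes did. With 11, MED10 fell by 0.51 (adjusted p 0.0308) and MED27 rose by 0.48 (adjusted p 0.0474), where 7.33% of all genes were called. In TRB cells MED27 rose by 0.82 with 11 libraries (adjusted p 0.000572), and its change was 0.48 with 12 (adjusted p 0.280). The difference of its responses was 0.34 with 11 (adjusted p 0.255). The interaction passed for 0 Mediator genes with 12 libraries (3 at an unadjusted p under 0.05), where 2.59% of all genes passed. With 11, CDK19, a kinase of Mediator, passed with a difference of 0.71 (SE 0.204, adjusted p 0.0340), where 15.2% of all genes did.

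For TRB against EV in vehicle, 8 of the 9 genes had groups that did not overlap, where 36.3% of all genes did not. With 11 libraries 7 of the 9 did not overlap (MED1 did), beside 35.9% of all genes. With 12, THRB, RXRA and RXRB were above the EV libraries, and NCOR1, NCOA1, NCOA2, NCOA3 and MED1 were below them. Apart from THRB none of these passed in edgeR, with changes of -0.30 (NCOA1) to 0.23 (RXRB) and adjusted p of 1.00. The 2 that were above apart from THRB are GC-rich and the 5 below are GC-poor. THRA, also GC-rich, overlapped between the groups, with a change of 0.08. Whether GC content accounts for these directions was not tested. The Spearman correlation of a library's deviation with GC was -0.75 to -0.29 in EV/vehicle and -0.01 to 0.33 in TRB/vehicle. With GC offsets on 11 libraries the same changes, THRB again apart, ran from -0.16 (NCOA1) to 0.06 (RXRB), and none passed, where 1.03% of all genes did. With the compared groups alone NCOA2 was lower in TRB cells by 0.26 (adjusted p 0.0451).

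For TRB against EV cells under T3, groups did not overlap for THRB alone with 12 libraries (26.3% of all genes) and for THRB and NCOA1 with 11 (40.8%). NCOA1 differed by 0.51 (SE 0.197, adjusted p 0.147) with 12 libraries and by 0.43 with 11 (adjusted p 0.0934). With GC offsets on 11 libraries 5 of the 9 passed, where 41.6% of all genes did. THRB and NCOA1 (0.36, adjusted p 0.0287) were higher in TRB cells, and THRA (-0.34, adjusted p 0.00281), RXRA (-0.42, adjusted p 0.0001) and NCOR1 (-0.20, adjusted p 0.0497) were lower. On 12 libraries with GC offsets 2 of the 9 passed, THRB and THRA (-0.27, adjusted p 0.0419), where 3494 of 12159 genes did. There RXRA (-0.24, adjusted p 0.146), NCOA1 (0.27, adjusted p 0.169) and NCOR1 (-0.22, adjusted p 0.0663) did not pass.

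Among the other coregulators in that comparison, with 12 libraries RCOR1 was higher in TRB cells by 0.71 (adjusted p 0.0317), NCOA4 by 0.93 (adjusted p 0.0192) and PPARGC1A by 1.38 (adjusted p 0.0139). PPARGC1B was lower by 1.38 (log2 fold change -1.38, adjusted p 0.00778), as was TBL1X. All 5 passed with 11 libraries as well. The shares of all genes called in this comparison were 6.68% with 12 libraries and 19.7% with 11. With the compared groups alone none of the 5 passed (adjusted p 0.0587 for TBL1X and 0.188 to 0.382 for the others). The calls of RCOR1, NCOA4 and PPARGC1A were also lost without EV/T3 replicate 1 or 3 (adjusted p 0.0613 to 0.108), and that of RCOR1 without EV/T3 replicate 2 (adjusted p 0.0582) and, by a small margin, without EV/vehicle or TRB/vehicle replicates 2 or 3 (adjusted p 0.0501 to 0.0503). With no count filter RCOR1, NCOA4 and PPARGC1A lost their calls (adjusted p 0.161, 0.0581 and 0.0545), and with GC offsets on 12 libraries PPARGC1A did (1.04, adjusted p 0.0534). Of Mediator 0 passed in edgeR with 12 libraries (3 at an unadjusted p under 0.05). With 11, CDK19 was higher by 0.54 (adjusted p 0.0246), and MED12, a subunit of the same kinase module, by 0.39 (adjusted p 0.0321).

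In EV/vehicle, per kilobase of exon, the order of the 9 genes was MED1 (17.3 ± 0.476 CPM), NCOR1 (16.3 ± 0.564), RXRA (15.1 ± 1.14), THRA (13.7 ± 1.44), RXRB (13.4 ± 0.580), NCOA3 (10.6 ± 0.618), NCOA2 (10.4 ± 0.251), NCOA1 (4.0 ± 0.255) and THRB (1.33 ± 0.127). Neighbours whose libraries overlapped were NCOR1 and RXRA, RXRA and THRA, THRA and RXRB, and NCOA3 and NCOA2. The step from NCOA2 to NCOA1 and that from NCOA1 to THRB separated all libraries. THRB moved from the last place to the first in TRB/T3, where its level per kilobase was 24.6 ± 6.37 CPM and the next was MED1 at 17.8 ± 1.57. Without replicate 2 THRB was first at 28.2 CPM per kilobase, followed by RXRB at 17.2 and MED1 at 17.0.

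Over the 11 libraries without TRB/T3 replicate 2, genes with a pattern among the most like THRB by Pearson's r of log2 CPM were ZNF185 (0.96) and CARS (a tRNA synthetase, 0.95). Those most like THRA were ID1 (an inhibitor of helix-loop-helix factors, 0.98), CRIP2 (0.97) and HMGA1 (a chromatin protein, 0.97). HMGA1 stood at 1029 CPM in EV/vehicle, 860.3 in EV/T3, 1047 in TRB/vehicle and 655 in TRB/T3. These r values describe libraries that share 4 groups and a GC trend, and they have no test.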

How the data were processed

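Total RNA of 12 SW1736 libraries was sequenced, with RIN values above 7 and Kapa Hyperprep libraries per the labels. Each library has a file of raw counts by gene symbol, as deposited by the authors. Per the submitters' processing notes, the tools were CASAVA 1.7, STAR 2.7, HTSeq 0.10 and DESeq2 and the build was hg38; the annotation and strand setting are not given in the sources used here. Lines for reads of no gene entered neither library sizes nor tests: 19.0% to 92.0% of a file's total was not unique, 2.14% to 24.4% lay outside genes and 0.258% to 1.81% was ambiguous. By replicate, the part not unique was 66.3%, 33.1% and 37.9% in EV/vehicle and 77.7%, 69.6% and 92.0% in EV/T3, without overlap. It was 66.9%, 43.7% and 46.4% in TRB/vehicle and 58.9%, 19.0% and 66.6% in TRB/T3. Whether this difference bears on the T3 changes was not tested.

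Groups were taken from the labels. Genes were filtered with filterByExpr (minimum count 10, total 15), scaled by TMM and fitted in edgeR 4.0.16 (R 4.3.3; limma 3.58.1) with glmQLFit and 1 coefficient per group over all 12 libraries; 5 contrasts were tested two-sided with Benjamini-Hochberg adjustment over all genes. Standard errors were derived from the fold change and F statistic. GC content came from the longest GENCODE transcript of a symbol (84.3% of tested genes had one), and GC offsets used a spline with 5 degrees of freedom. Other alternatives were DESeq2 1.42.0, upper-quartile scaling, count filters, the compared groups alone, a replicate block and leaving out each library. The procedure was tested on simulated counts with 200 genes changed in TRB/T3. With 12 libraries 82% of the 4-fold and 9% of the 2-fold changes were called, and with 11 libraries 95% and 85%. Of the calls, 1.09% with 12 libraries and 6.25% with 11 were false. In the simulation a gene had the same spread in every library and no GC trend, unlike these data. The rates may therefore not hold for these data. A gene not called with 12 libraries may still have changed 2-fold.

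The 9 genes, the 3 lists and the tests were chosen with earlier results of these data known. Genes named from a list are its called genes per contrast, at most 3 in each direction, taken from 11 libraries where none was called with 12. The genes most like THRB and THRA were sought among tested genes with a mean log2 CPM (prior count 2) of at least 3; 1 of these and 1 cell type marker are not reported here. The deposited table of normalized values was not used here.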

Additional observations from a re-analysis of the deposited data

Results flagged for a closer look

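The T3 response differed between TRB and EV cells by a test of the difference itself for 3 of the genes named, with 12 libraries in edgeR. That test called 2.59% of all genes. For THRB the log2 change was greater in TRB cells by 1.72 (SE 0.314, adjusted p 0.0187), a call lost on leaving out any 1 of 8 libraries (adjusted p 0.0504 to 0.0787). For TBL1X the difference was -1.62 (SE 0.193, adjusted p 0.00215), and all 3 TRB libraries with T3 lay below the other 9. For PPARGC1A the difference was 1.80 (SE 0.372, adjusted p 0.0306), from 5 to 53 counts per library. That call was lost with GC offsets on 12 libraries (adjusted p 0.0963), with no count filter (adjusted p 0.105) and on leaving out any 1 of 10 libraries (adjusted p 0.0513 to 0.125).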

How the results depend on the processing

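With GC offsets on 12 libraries, 5181 genes were called for T3 in TRB cells, 542 for T3 in EV cells, 7 for TRB against EV in vehicle, 3494 for the same under T3 and 2335 for the interaction. Of the 9 genes 4, 1, 1, 2 and 1 were called. With GC offsets on 11 libraries the counts were 6907, 2181, 127, 5129 and 4234, and of the 9 genes 5, 1, 1, 5 and 3. The cause of these shifts was not tested. DESeq2 called 172 genes for T3 in EV cells, 8 for TRB against EV in vehicle, 1905 under T3 and 1022 for the interaction. With the compared groups alone 634, 200, 1563 and 32 genes were called for T3 in TRB cells, T3 in EV cells and the vectors in vehicle and under T3. Of the 9 genes 1 was then called for T3 in TRB cells and 2 between the vectors in vehicle. With no count filter 1 of the 9 was called for T3 in TRB cells, 19 genes were called for T3 in EV cells and 238 for the interaction.

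Leaving out each library in turn gave 1256 to 4938 genes for T3 in TRB cells (1 to 3 of the 9), 10 to 1087 for T3 in EV cells, 1 to 11 between the vectors in vehicle (0 to 1 of the 9), 414 to 2918 under T3 and 136 to 2259 for the interaction (0 to 2 of the 9). The highest of each came without TRB/T3 replicate 2.

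Direction reversed mostly where a change was near 0. For T3 in EV cells, MED1 was at 0.0062 in DESeq2, 0.012 with upper-quartile scaling, 0.0021 with at least 10 counts in every library, and 0.0072 and 0.010 with GC offsets on 12 and 11 libraries, and ran from -0.076 to 0.090 on leaving out a library. NCOA1 was at 0.020 and 0.035 with GC offsets and ran from -0.23 to 0.069. NCOA3 was at 0.084 and 0.086 with GC offsets and ran from -0.20 to 0.021. THRB was at -0.015 with no count filter and ran from -0.095 to 0.20. For T3 in TRB cells, RXRB was at 0.035 and 0.038 with GC offsets and ran from -0.65 to 0.17, and NCOA2 was at -0.0026 with GC offsets on 12 libraries. THRA between the vectors in vehicle was at -0.10 and -0.099 with GC offsets. Between the vectors under T3, GC offsets gave RXRB 0.078 and 0.085, NCOA2 -0.13 and -0.043, MED12 0.042 and 0.31, and MED1 -0.022 on 12 libraries. On leaving out a library RXRB ran from -0.70 to 0.17, MED12 from -0.47 to 0.39, MED1 from -0.0099 to 0.16 and NCOR1 from -0.14 to 0.039. For the interaction, GC offsets gave RXRB 0.013 and 0.021 and NCOR1 -0.13 and -0.11.

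Replicate numbers were shared between groups, but the labels do not say that they mark a culture or day. Deviations of same-numbered libraries had correlations from -0.19 to 0.73, above 0.1 in 12 of 18 pairs, and 7 of 12 libraries correlated best with their own number. These values do not decide whether the numbers mark a shared culture or day. The main fits did not take the numbers as pairs. With a replicate block 18 genes were called for T3 in EV cells. The block ended the call of MED10 for T3 in TRB cells (adjusted p 0.0608) and made CDK19 pass between the vectors under T3 (adjusted p 0.0429); it changed no other call of a named gene.

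Depth limits the precision of genes with few counts: of the 9, THRB had 56 counts in EV/T3 replicate 3, and THRA and RXRB had 75 and 74 in TRB/T3 replicate 2, while PPARGC1A had 5 to 53 per library.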
